A study of Mus musculus with 40 samples.

Results

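The comparison described here sets Akita mice given MitoGamide against Akita mice given its ethanol vehicle, with 5 mice in each group. Its members are the 10 libraries, of 40 in the series, whose column names and labels give the heterozygous Akita genotype with one of these treatments. All 10 mice were male C57BL/6J animals, heterozygous for the Ins2-Akita allele and diabetic, so the diabetic background was shared by both groups. From 6 to 22 weeks of age they received by daily oral gavage either 10% ethanol in water or MitoGamide at 10 mg/kg. RNA was isolated from the renal cortex of individual animals, depleted of ribosomal RNA and sequenced from a strand-preserving library. The series also held WT mice on the same treatments, of which 10 libraries are set beside the Akita values here, and water and MitoQ arms that enter only 1 of the alternative fits. Since each library came from 1 mouse, p-values measure the spread between mice.

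MitoGamide is a compound that accumulates in mitochondria and reacts with dicarbonyls such as methylglyoxal, which form from glucose and modify proteins. The renal cortex consists mainly of proximal tubule, with glomeruli, distal segments, vessels and interstitial cells between. In the actin cytoskeleton, the Arp2/3 complex starts new filament branches, tropomyosins and caldesmon lie along filaments, non-muscle myosin pulls on them, and small GTPases such as Rap1 direct where this takes place. Chaperones fold newly made proteins, with Hsp90 and Hsp70 families in the cytosol, the TRiC ring for actin and tubulin, and Hspa5 (BiP) and Hsp90b1 (Grp94) in the endoplasmic reticulum.

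Library totals lay between 14753200 and 20200261 estimated counts in the vehicle group and between 14161145 and 18667162 in the MitoGamide group. Levels are given as CPM, counts per 1000000 counts of the library, scaled by TMM factors over these 10 libraries. The proximal tubule phosphate transporter Slc34a1 was at 2159 to 3929 CPM and the thick ascending limb gene Umod at 573 to 1107 CPM in all 10 libraries, and none of 7 urothelial markers had enough counts to be tested. Reads of the mitochondrial genome made up 21.6% to 28.7% of counts in the vehicle libraries and 28% to 35.4% in the MitoGamide libraries, and olfactory receptor genes summed to 420.1 to 587 and 249 to 445 CPM of the library total. The ranges of both overlapped between the groups, and the part of either in the results below was not tested. In bulk RNA, fewer cells of a type and less RNA per cell cannot be told apart.

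MitoGamide replicate 5 stood apart from the other 9 libraries. It held the highest or the lowest value of all 10 libraries in 50.7% of the tested genes, against 11.3% to 26.1% in each of the other libraries. It lay more than 2-fold above the median of the other 4 MitoGamide mice in 600 genes and more than 2-fold below it in 647 genes, while the corresponding numbers were 27 to 132 and 53 to 151 in the other libraries. On the first principal component, with 30.2% of the variance, its score was 79.5 and the other 9 scores were between -18.4 and 0.2. Counts of called list members are therefore given with and without this library. All 10 mice entered the main test.

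Genes averaging 10 or more counts across the 10 libraries were tested. Of these 17051 genes, 214 (1.26%) had an adjusted p under 0.05 in edgeR's quasi-likelihood test with Benjamini-Hochberg adjustment, referred to below as called. They were 142 higher (0.833%) and 72 lower (0.422%) genes with MitoGamide, and the median log2 fold change of all tested genes was -0.0. An unadjusted p under 0.05 was found for 3564 of the 17051 genes. DESeq2 called 1069 genes (6.27%), 673 higher (3.95%) and 396 lower (2.32%). Without replicate 5 of the MitoGamide group, 802 genes were called (4.67%), 488 higher (2.84%) and 314 lower (1.83%), and all 214 genes were among them. With any 1 vehicle library left out, between 0 and 4 genes were called, and no member of any list described below was among them. Without MitoGamide replicate 1, 2, 3 or 4 the number was 212, 13, 101 or 30, and list members were lost in each of these fits, as given below.

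Among genes of the actin cytoskeleton, 8 of 126 tested members were higher with MitoGamide (6.35%, against 0.833% of all tested genes) and none was lower. Their median log2 fold change was 0.18 and 104 of the 126 were above 0, against 49.6% of all tested genes, which also included pseudogenes. The other large groups of lists lay mostly above 0 too, with 119 of 170 cell type, 81 of 112 chaperone and 118 of 174 cell cycle genes. The lists were chosen with earlier results of these data known. The called genes encode 3 proteins of contractile filaments (Tpm4, Cald1 and Myl12b), 2 subunits of the Arp2/3 complex (Arpc2 and Arpc3) and 3 members of the GTPase group (Rap1a, Rap1b and Rock2). All 5 MitoGamide values lay above all 5 vehicle values in 24 of the 126 genes (785 of all tested genes, or 4.60%) and below them in 0 (503 of all, or 2.95%). DESeq2 called 20 actin genes (against 6.27% of all), and the fit over all 40 libraries kept 1 call in these lists, Tpm4. Without MitoGamide replicate 2 none of the 8 genes was called, without replicate 4 1 was (Tpm4), and without replicate 3 neither Arp2/3 gene was. The myosin and tropomyosin list held 2 called genes without replicate 3, and the GTPase list 2 without replicate 1, each against 3 with all mice. In the fit with no filter on low counts, 0 Arp2/3 genes and 2 genes of the GTPase list were called. The summed level of each of the 6 actin lists overlapped between groups.

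Tpm4 (ENSMUSG00000031799.10, chromosome 8 of GRCm38, 72134975 to 72153142), a tropomyosin of non-muscle filaments, was at 36.9, 42.0, 38.7, 37.9 and 40 CPM in vehicle replicates 1 to 5 and at 60.5, 65.6, 47.7, 57.5 and 66.3 CPM in MitoGamide replicates 1 to 5. The groups did not overlap, and replicate 5 was the highest of all. The log2 fold change was 0.61 (standard error, SE, 0.09, adjusted p = 0.0264, edgeR). Cald1 (chromosome 6, 34598500 to 34775473), which encodes the actin and myosin binding protein caldesmon, measured 36.3, 38.8, 36.2, 35.4 and 39.2 CPM with vehicle and 70.7, 59.6, 47.7, 51.1 and 50.5 CPM with MitoGamide. The vehicle mice were close together, whereas the MitoGamide mice spread widely above them, with replicate 1 at the top. Its log2 fold change was 0.59 (SE 0.10, adjusted p = 0.0299, edgeR). Myl12b, a regulatory light chain of non-muscle myosin on chromosome 17, ranged from 24.8 to 33.7 CPM with vehicle and from 36.9 to 57.9 CPM with MitoGamide, a log2 fold change of 0.65 (adjusted p = 0.0422, edgeR).

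Arpc2 (chromosome 1, 74236084 to 74268209), one of the core subunits that hold the branch to its mother filament, was at 81.6, 82.0, 74.9, 82.0 and 76.7 CPM with vehicle and 91.8, 99.2, 98.9, 102 and 111 CPM with MitoGamide. Arpc3 on chromosome 5 was at 26.1 to 30.3 and 34.8 to 37.7 CPM. Both differences were small but larger than the spread between mice, with log2 fold changes of 0.34 and 0.35 (SE 0.07 for each, adjusted p = 0.0407 and 0.0395, edgeR). The other 7 genes listed for the complex, which works as one assembly, were not called, and their log2 fold changes were between -0.07 (Arpc1a) and 0.22 (Actr3 and Arpc5).

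The GTPase Rap1a (chromosome 3, 105727267 to 105801336), which regulates adhesion and cell junctions, was at 24.2, 24.9, 24.9, 24.1 and 27.1 CPM in the vehicle mice and 32, 32.3, 32.2, 35.4 and 33.3 CPM in the MitoGamide mice. Its near relative Rap1b on chromosome 10 was at 56.7 to 63.6 and 71.4 to 96.6 CPM, and Rock2, a kinase that activates myosin, at 54.9 to 59.9 and 65.5 to 85.3 CPM. None of the 3 genes overlapped between groups, with log2 fold changes of 0.40, 0.44 and 0.37 and adjusted p of 0.0264, 0.0407 and 0.0444 (edgeR). Replicate 5 had the highest value of Rap1b and Rock2, while replicate 4 had that of Rap1a.

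**Figure D1:**
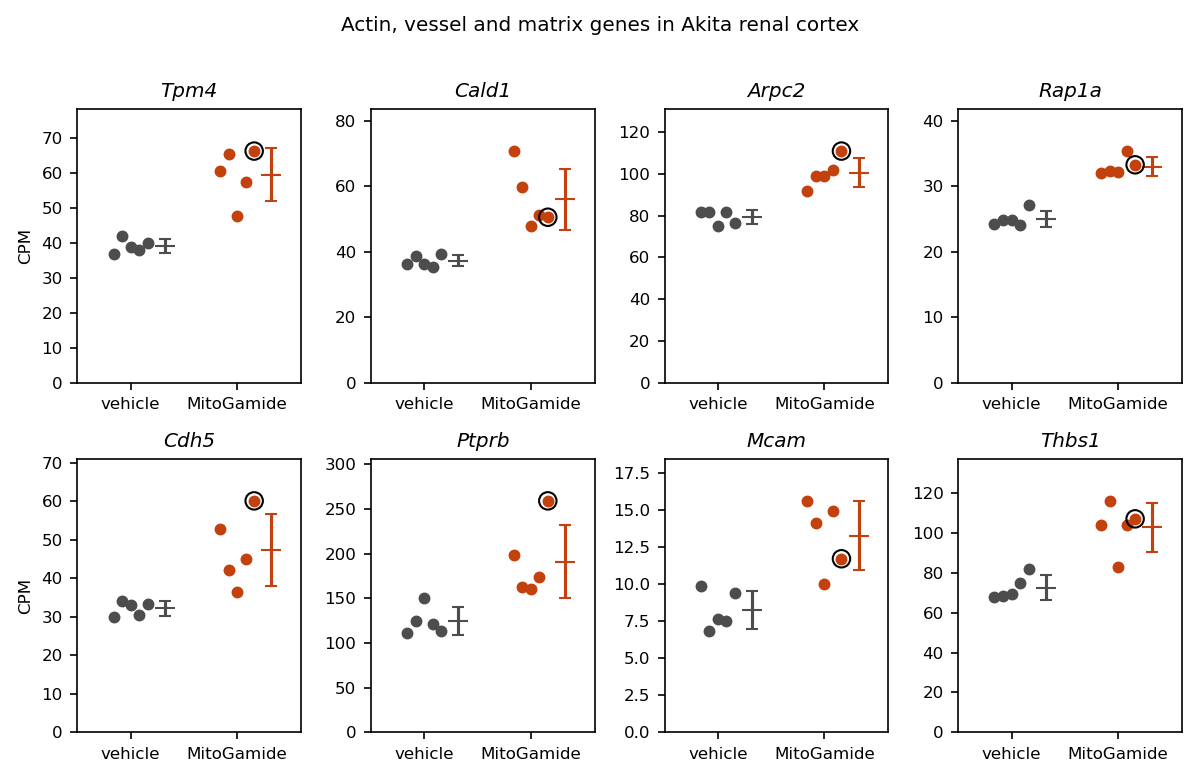
CPM of 8 called genes in each of the 10 Akita mice, with vehicle in grey, MitoGamide in orange, the mean and SD of each group (n = 5) beside the points and MitoGamide replicate 5 circled. In each panel the lowest MitoGamide value lies above the highest vehicle value, as for Tpm4 (47.7 against 42.0 CPM) and Mcam (10.0 against 9.86 CPM).

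Without replicate 5, 18 actin genes were called, all higher (14.3%, against 2.84% of all tested genes). Several of the 10 added genes were close to or below the vehicle level in that mouse. Choosing genes called only without that mouse favours such values. Myl9, the light chain of smooth muscle myosin, was at 18.1, 21.4, 15.0, 10.2 and 17.8 CPM with vehicle and at 26.0, 32.3, 24.2, 26.4 and 16.3 CPM with MitoGamide. Cnn2, an actin-binding calponin, was at 8.17 to 12.1 CPM with vehicle, 13.0 to 18.5 CPM in MitoGamide replicates 1 to 4 and 6.10 CPM in replicate 5. Both genes thus overlapped between groups through 1 library, and the log2 fold changes were 0.61 (Myl9) and 0.45 (Cnn2) with it and 0.73 and 0.64 without it (adjusted p = 0.122, 0.302, 0.0349 and 0.0246, edgeR). Tmsb10, a thymosin that holds actin monomers, and the filament crosslinker Flna followed the same course, at 4.97 CPM (12.8 to 16.3 in the other 4) and 77.9 CPM (124 to 176). Dstn, which encodes the filament-severing destrin, went the other way. It was at 129 to 138 CPM with vehicle, 159 to 175 CPM in MitoGamide replicates 1 to 4 and 243 CPM in replicate 5, with an adjusted p of 0.0678 with that library and 0.0206 without it (edgeR). Tmsb4x, the main thymosin, was at 52.1 to 64.1 CPM with vehicle and 66.1 to 83.3 CPM with MitoGamide, and its adjusted p was 0.0599 with and 0.0407 without replicate 5 (edgeR).

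The 5 called genes among 170 tested cell type markers (2.94%, against 0.833% of all tested genes) all came from the lists of vessel cells. Of 16 endothelial markers, 3 were called, all higher (Ehd3, Cdh5 and Ptprb), and 15 had a log2 fold change above 0, with a median of 0.41. Of 13 tested markers of mesangial cells, pericytes and smooth muscle, 2 were called, both higher (Des and Mcam), with a median of 0.39. None of the other 18 cell type lists held a called gene with all mice. DESeq2 called 15 cell type markers (against 6.27% of all), 8 endothelial, 4 mural and 1 each of podocytes, fibroblasts and adipocytes. Without MitoGamide replicate 1, 2 or 4 no endothelial or mural marker was called, and without replicate 3 there were 2 endothelial and 1 mural. The fit over all 40 libraries called 3 endothelial and 0 mural markers. The numbers were 1 and 2 with at least 10 counts in every library, 2 and 2 with RLE scaling, and 4 and 1 without a filter. Without replicate 5, 12 cell type markers were higher (7.06%, against 2.84% of all tested genes), 8 endothelial and 4 mural, and 1 was lower, the proximal tubule gene Slc6a19.

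Cdh5 (chromosome 8, 104101625 to 104144511), the cadherin of endothelial junctions, was at 29.9, 34.2, 33.2, 30.5 and 33.3 CPM with vehicle and 52.8, 42.2, 36.4, 45.1 and 60.1 CPM with MitoGamide. Ptprb, the phosphatase that acts on this junction and on Tie2, was at 111 to 150.4 and 160.5 to 259 CPM, and Ehd3, a membrane-trafficking protein enriched in glomerular endothelium, at 19.3 to 23.6 and 26.2 to 33.8 CPM. In none of the 3 genes did the groups overlap, though replicate 5 supplied the highest Cdh5 and Ptprb values. The log2 fold changes were 0.55, 0.62 and 0.47 (adjusted p = 0.0478, 0.0495 and 0.0407, edgeR). Pecam1, the endothelial adhesion molecule CD31, was at 44.8 to 56.8 and 59.7 to 99.7 CPM, with an adjusted p of 0.0544 (edgeR). The remaining markers were not uniform, since Egfl7, Nos3, Sox17 and Vwf had log2 fold changes of 0.05, 0.08, 0.05 and -0.15. Summed over all 16 markers, the vehicle libraries held 740.2 to 809 and the MitoGamide libraries 855 to 1160 CPM of the library total, while the mural markers overlapped, at 212 to 229.6 and 215 to 252 CPM. The endothelial and mural markers were thus called in the same comparison as the actin genes, and their part in the actin result was not tested. Without replicate 5, 8 of the 16 endothelial markers were called, all higher (against 2.84% of all tested genes), namely the 3 genes and Pecam1, Flt1, Emcn, Plvap and Eng, and the median was 0.39.

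Among the mural genes, Mcam (CD146, an adhesion molecule of pericytes and endothelium) was at 9.86, 6.86, 7.66, 7.54 and 9.38 CPM with vehicle and 15.6, 14.1, 10.0, 14.9 and 11.7 CPM with MitoGamide, a log2 fold change of 0.68 (adjusted p = 0.0449, edgeR). The intermediate filament gene Des was at 5.55 to 7.40 and 8.68 to 10.1 CPM, a change of 0.51 (adjusted p = 0.0417, edgeR). Acta2, the smooth muscle actin, overlapped between groups at 6.10 to 10.3 and 9.87 to 21.5 CPM and had an adjusted p of 0.101 (edgeR), or 0.0359 without replicate 5. Myh11, Notch3 and Cspg4 of the same list had log2 fold changes of -0.02, 0.03 and -0.29.

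No tubular gene was called with all mice. The median log2 fold change was -0.12 for proximal tubule segments S1 and S2 (13 genes), -0.05 for S3 (9 genes, or 0.14 without replicate 5), 0.03 for the thick ascending limb (11 genes), 0.18 for the distal convoluted tubule (11 genes), 0.09 for principal cells (11 genes) and -0.03 for intercalated cells (12 genes). With 1 library left out, the median ranged from -0.17 to -0.03 for S1 and S2 and from -0.30 to 0.19 for S3. In the same fits it ranged from -0.03 to 0.11 for the thick ascending limb and from -0.06 to 0.06 for intercalated cells. Podocyte markers had a median of 0.21 with 14 of 15 genes above 0 and none called, and 0.12 without replicate 5. The fibroblast and macrophage lists had medians of 0.24 (11 genes) and 0.23 (14 genes), or 0.37 and 0.26 without replicate 5. The adipocyte list, with 3 of 10 markers tested and none called with all mice, had a median of -0.79, or -1.07 without replicate 5. That median was 0.01 without vehicle replicate 2 and 0.04 without vehicle replicate 3. Lists of blood cells, with few tested genes and none called in either fit, had medians at or above that of the endothelial list, namely 0.57 for erythroid cells (6 genes, 0.74 without replicate 5), 0.78 for B and plasma cells (4 genes, 0.66), 0.51 for T and NK cells (5 genes, 0.23) and 0.41 for neutrophils (2 genes, 0.19). Values of the hemoglobin gene Hba-a1 overlapped, at 149 to 334 CPM with vehicle and 221 to 687 CPM with MitoGamide. The part of blood cells in the results on vessel markers was not tested. Of 13 T and NK cell markers 5 were tested and of 9 neutrophil markers 2, and the defining T cell genes Cd3e, Cd3d and Trac and the neutrophil genes S100a8 and S100a9 had too few counts.

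**Figure D2:**
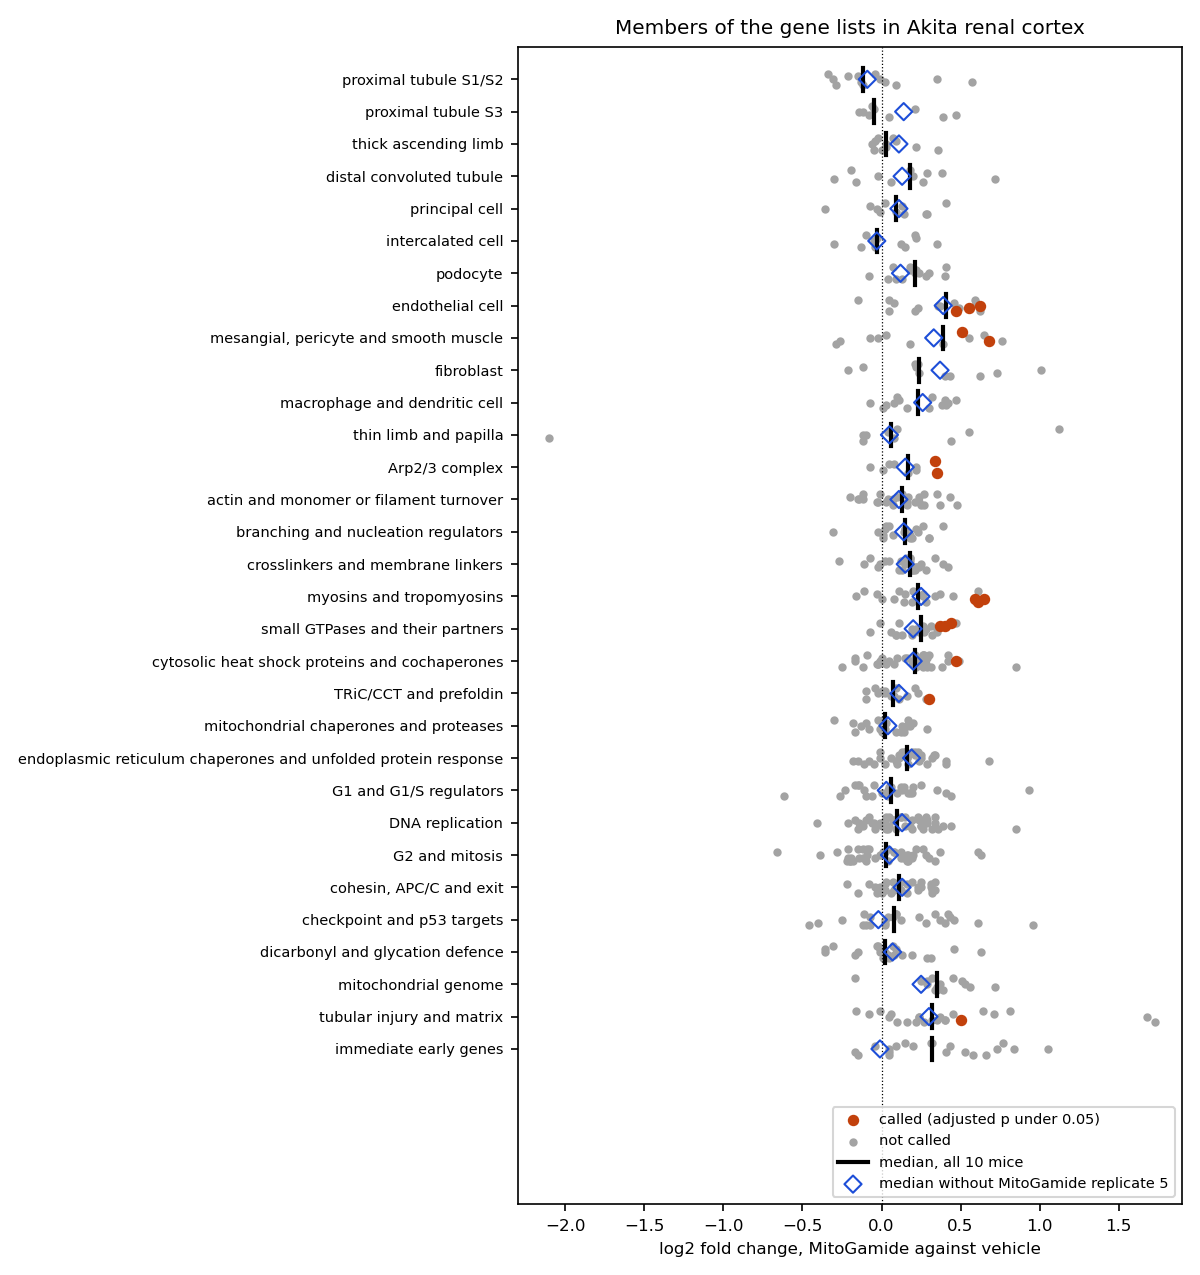
Log2 fold change of MitoGamide against vehicle for each tested member of the lists with at least 9 tested genes, with called genes in orange, other genes in grey, the list median over all 10 mice as a bar and the median without MitoGamide replicate 5 as a blue diamond. The endothelial and mural medians lie at 0.41 and 0.39, and the median of the immediate early genes drops from 0.32 to -0.01 without that mouse.

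Of 23 tested genes of tubular injury and matrix, Thbs1 was called, with and without replicate 5 (4.35%, against 0.833% and 2.84% of all tested genes called higher). It was not called without MitoGamide replicate 2 or 4 or in the fit over all 40 libraries. DESeq2 called 6 of the 23 genes (against 6.27% of all). The median log2 fold change was 0.32 (0.30 without replicate 5), and 20 genes were above 0, against 49.6% of all. Thbs1 (chromosome 2, 118111876 to 118127133), the matricellular protein thrombospondin 1, was at 67.6, 68.5, 69.3, 75.1 and 82.1 CPM with vehicle and 104, 116, 82.7, 104 and 107 CPM with MitoGamide, so that the lowest treated mouse lay just above the highest vehicle mouse. Its log2 fold change was 0.50 (SE 0.09, adjusted p = 0.0348, edgeR). Fibronectin (Fn1) was at 38.7 to 60.4 and 57.0 to 124 CPM and collagen IV (Col4a1) at 209 to 278 and 233 to 336 CPM, with overlapping groups and adjusted p of 0.0972 and 0.183 (edgeR). Cystatin C (Cst3) was at 78.1 ± 3.89 CPM with vehicle and 83.5 ± 9.89 CPM with MitoGamide (SD, n = 5). Havcr1, which encodes the tubular injury marker Kim-1, had too few counts to be tested.

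With all 10 mice, 2 of 112 tested chaperone genes were called, Hsp90aa1 and Cct6a, both higher (1.79%, against 0.833% of all tested genes), and DESeq2 called 13 (against 6.27%). Neither gene was called without a filter on low counts or in the fit over all 40 libraries. Hsp90aa1 was also not called without MitoGamide replicate 1, 2, 3 or 4 or with at least 10 counts in every library, nor Cct6a without replicate 2, 3 or 4. Without replicate 5, 11 were called, all higher (9.82%, against 2.84%). The median log2 fold change was 0.14 with and 0.15 without that mouse.

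Hsp90aa1 (chromosome 12, 110690605 to 110702728), the stress-inducible cytosolic Hsp90, was at 180.3, 191, 165, 224 and 232 CPM with vehicle and 275, 259, 272, 304 and 264 CPM with MitoGamide, or 0.47 higher on the log2 scale (SE 0.10, adjusted p = 0.0466, edgeR). All treated mice, replicate 5 included, were above the vehicle mice. Cct6a, a subunit of the TRiC ring, was at 82.7 to 90.8 and 103 to 113 CPM (log2 fold change 0.30, adjusted p = 0.0422, edgeR), while the other 7 subunits of the ring were not called. The Hsp90 cochaperone Ptges3 (p23) was at 56.4 to 62.0 and 67.8 to 75.9 CPM, and its adjusted p was 0.0505 with and 0.0285 without replicate 5 (edgeR).

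In Dnaja1, Hspa5 and Hsp90b1, which were called only without replicate 5, its value was among or below those of the vehicle mice. That choice of genes favours values of replicate 5 that go against the other treated mice. Dnaja1, an Hsp40 partner of Hsp70, was at 129, 120, 104, 115 and 122 CPM with vehicle and 167, 149.8, 156, 174 and 81.7 CPM with MitoGamide. Its log2 fold change was 0.30 with all mice and 0.45 without replicate 5 (adjusted p = 0.314 and 0.0162, edgeR). Hspa5 was at 174, 178, 157, 229.8 and 197 CPM with vehicle and 239.8, 272, 280.2, 303 and 149 CPM with MitoGamide, and Hsp90b1 at 213, 234, 206, 209.6 and 284 and at 316, 331, 316, 334 and 229 CPM. For both, the 4 other treated mice were above all vehicle mice. The adjusted p was 0.194 (Hspa5) and 0.0974 (Hsp90b1) with replicate 5 and 0.0209 and 0.0206 without it (edgeR). Pdia3, a disulfide isomerase of the same compartment, was the third of the 35 tested genes of the endoplasmic reticulum called without replicate 5, at an adjusted p of 0.0372 (edgeR). Mitochondrial chaperones and proteases held no called gene in either fit (22 genes, medians 0.02 and 0.04).

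**Figure D3:**
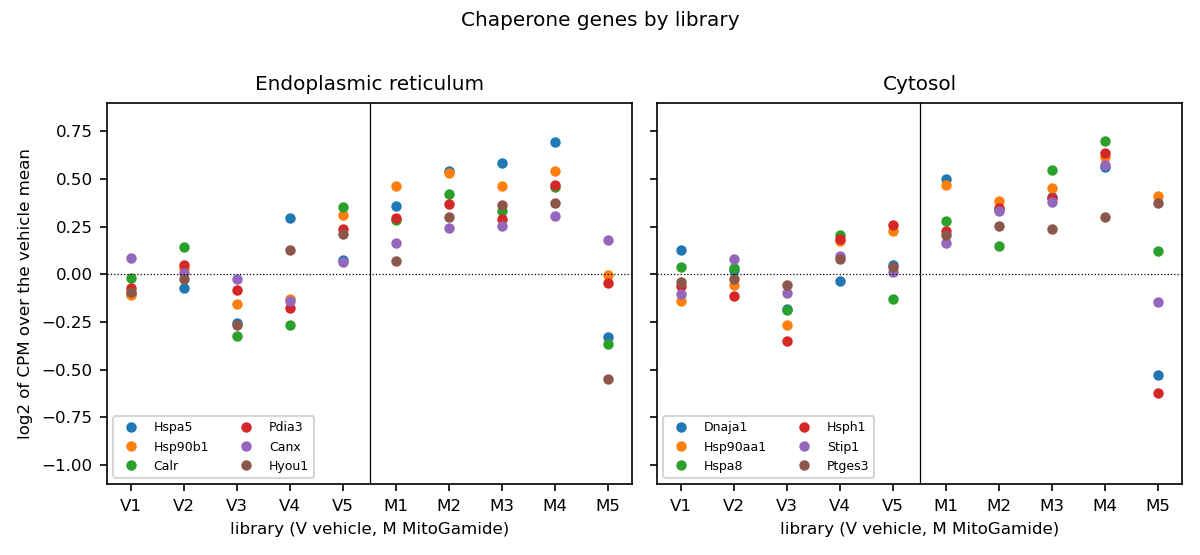
Log2 of the CPM over the vehicle mean for 6 chaperone genes of the endoplasmic reticulum (left) and 6 of the cytosol (right) in vehicle libraries V1 to V5 and MitoGamide libraries M1 to M5. The genes shown were picked by hand from their lists. With all mice, 28 of 35 and 29 of 39 tested genes of these lists had a log2 fold change above 0. All 12 genes are above 0 in M1 to M4, whereas M5 is below 0 for Hspa5 (149 CPM), Calr, Pdia3, Hyou1, Dnaja1 (81.7 CPM), Hsph1 and Stip1, at about 0 for Hsp90b1 and above 0 for Canx, Hspa8, Hsp90aa1 (264 CPM) and Ptges3.

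Genes of the unfolded protein response are known for the endoplasmic reticulum stress response element (ERSE), and the contractile genes for the CArG box bound by serum response factor. Both were searched in the 250 bases before each gene's start in the RefSeq promoter table of GRCm38.p6, on both strands. The letters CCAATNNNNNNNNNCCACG of the ERSE were found in 8 of 29 matched genes of the endoplasmic reticulum list (27.6%), against 37 of 32851 windows in all (0.113%). The CArG box was found in 4 of 19 matched myosin and tropomyosin genes (21.1%, against 1.47% of all windows), namely Myl9, Cnn2, Myl6 and Myo1e, none of which was called with all mice. Other actin lists held it in Arpc4 (12.5% of the list), Actg1 and Vil1 (9.09%), Lima1 and Vcl (8.70%) and Rnd3 (6.25%). Outside the actin lists it was found in Tyms, Ager and Zfp36. A heat shock element, searched as the units GAA, TTC and GAA with 2 free bases between neighbours, was found in 1 of 33 matched cytosolic chaperone genes (3.03%, against 0.466% of all windows), in 2 of 17 matched genes of mitochondrial chaperones and proteases (Hspd1 and Hspe1, 11.8%), a list with no called gene, and, of the other lists, in the called gene Arpc2 and in Ccnd3. Some list members had no entry in the promoter table and were not searched. Hsp90aa1, the called gene of the cytosolic list, was among them. The windows of 3 endoplasmic reticulum genes and of the 2 contractile genes that dropped in replicate 5 are shown for their matches, which are in capitals, 5′ to 3′ on the gene's strand: Hspa5 at chr2:34771840-34772089 (plus strand), Hsp90b1 at chr10:86705445-86705694 (minus), Calr at chr8:84846932-84847181 (minus), Myl9 at chr2:156775214-156775463 (plus) and Cnn2 at chr10:79988350-79988599 (plus).
Hspa5: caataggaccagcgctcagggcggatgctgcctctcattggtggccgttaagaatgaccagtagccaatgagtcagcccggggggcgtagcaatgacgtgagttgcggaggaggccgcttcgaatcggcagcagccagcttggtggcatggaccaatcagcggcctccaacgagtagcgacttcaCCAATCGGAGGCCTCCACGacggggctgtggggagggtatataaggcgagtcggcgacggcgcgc
Hsp90b1: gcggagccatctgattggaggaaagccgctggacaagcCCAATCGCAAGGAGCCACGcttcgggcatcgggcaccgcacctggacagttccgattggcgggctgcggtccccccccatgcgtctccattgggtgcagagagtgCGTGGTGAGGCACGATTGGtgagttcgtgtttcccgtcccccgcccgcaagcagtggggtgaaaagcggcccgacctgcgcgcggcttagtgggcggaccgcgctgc
Calr: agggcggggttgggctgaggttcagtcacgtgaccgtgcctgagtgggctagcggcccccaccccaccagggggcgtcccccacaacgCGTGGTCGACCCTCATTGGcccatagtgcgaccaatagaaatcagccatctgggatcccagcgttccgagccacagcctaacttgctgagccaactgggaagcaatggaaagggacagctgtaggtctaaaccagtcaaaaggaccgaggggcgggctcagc
Myl9: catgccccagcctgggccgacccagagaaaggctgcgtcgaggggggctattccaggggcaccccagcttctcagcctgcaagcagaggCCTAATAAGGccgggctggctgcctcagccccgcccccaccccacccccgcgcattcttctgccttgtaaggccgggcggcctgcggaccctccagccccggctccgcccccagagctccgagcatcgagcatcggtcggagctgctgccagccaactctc
Cnn2: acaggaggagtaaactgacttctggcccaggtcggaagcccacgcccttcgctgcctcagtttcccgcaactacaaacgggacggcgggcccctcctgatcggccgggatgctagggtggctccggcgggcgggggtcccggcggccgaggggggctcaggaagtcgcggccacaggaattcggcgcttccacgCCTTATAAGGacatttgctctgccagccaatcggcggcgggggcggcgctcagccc

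Hsp90b1 held the ERSE letters at 2 places and Hspa5 and Calr at 1. With all mice, the 8 genes with these letters had a median log2 fold change of 0.22 and the 21 matched genes without them a median of 0.15. Without replicate 5, the medians were 0.26 (from -0.07 to 0.55) and 0.14 (from -0.32 to 0.36). Pdia3, called without replicate 5, did not hold these letters in its window. A match is a description of the sequence and was not tested against the expression values.

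Cell cycle genes were not called in the comparison of all 10 mice (0 of 174 tested by edgeR, 29 with an unadjusted p under 0.05, against 3564 of all 17051, and 11 called by DESeq2, against 6.27% of all), and their median log2 fold change was 0.08. Mki67, a marker of proliferating cells, was at 6.30, 19.1, 6.12, 2.96 and 7.11 CPM with vehicle and 8.56, 8.56, 9.89, 9.40 and 6.34 CPM with MitoGamide, with 1 vehicle mouse far above the rest. The G2 and mitosis list had a median of 0.03 (44 genes) and that of DNA replication 0.10 (46 genes), in which Pcna, the sliding clamp of the polymerases, was at 21.4 to 23.1 and 24.9 to 30.2 CPM without overlap (log2 fold change 0.26, adjusted p = 0.0826, edgeR).

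Without replicate 5, 9 cell cycle genes were higher (5.17%, against 2.84% of all tested genes) and 1 was lower. Of these, 6 came from the list of cohesin, the anaphase-promoting complex and mitotic exit. Wapl, which releases cohesin from chromatin, was at 74.1 to 85.0 CPM with vehicle and 91.1 to 110.0 CPM with MitoGamide, and Smc3, a core subunit of cohesin, at 21.6 to 27.5 and 29.1 to 32.6 CPM. The groups did not overlap in either gene, and the adjusted p were 0.0530 and 0.0566 with replicate 5 and 0.0280 and 0.0281 without it (edgeR). Cyclin D2 (Ccnd2) was at 13.7 to 19.1 CPM with vehicle, 20 to 27.2 CPM in MitoGamide replicates 1 to 4 and 13.5 CPM in replicate 5. Of the p53 target genes, Ccng1 and Plk2 were higher (0.40 on the log2 scale for both) and Bax, which promotes apoptosis, was lower, at -0.36 (adjusted p = 0.0225, 0.0372 and 0.0388, edgeR, without replicate 5). With all mice Bax was at 13.8, 13.1, 12.6, 15.6 and 14.0 CPM with vehicle and 10.6, 11.7, 10.8, 10.0 and 9.30 CPM with MitoGamide and had an adjusted p of 0.0540 (edgeR).

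The 5 raised and 5 lowered protein-coding genes with the smallest p values were outside these lists. Cacybp, a calcyclin-binding protein, was at 15.5, 15.6, 14.3, 16.3 and 17.2 CPM with vehicle and 22.6, 22.3, 24.1, 24.1 and 21.5 CPM with MitoGamide, or 0.54 higher on the log2 scale (SE 0.07, adjusted p = 0.0260, edgeR). Msrb3, a reductase that repairs oxidized methionine, was at 5.30 to 6.30 and 8.78 to 10.6 CPM, and Pdcd10 (CCM3), known for cerebral cavernous malformations of vessels, at 13.3 to 14.1 and 18.3 to 26.0 CPM. Ccdc184 was at 0.117 to 0.370 and 0.769 to 2.41 CPM, few counts in any vehicle library. The first of the 5, Commd1b, shares sequence with Commd1, so its reads may have been divided between both copies. It was at 9.02 to 12.3 and 18.1 to 24.8 CPM. These raised genes had log2 fold changes of 0.69 (Msrb3), 0.62 (Pdcd10), 2.65 (Ccdc184) and 1.09 (Commd1b), with adjusted p between 0.00719 and 0.0264 (edgeR).

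Of the lowered genes, Srcin1, an inhibitor of the kinase Src, was at 22.3, 23.8, 22.6, 25.9 and 25.5 CPM with vehicle and 15.8, 12.5, 13.7, 16.9 and 10.7 CPM with MitoGamide, a log2 difference of -0.79 (SE 0.12, adjusted p = 0.0264, edgeR). Myrf, a membrane-anchored transcription factor, was at 12.7 to 15.3 and 8.89 to 10.5 CPM, Tmem160 at 10.1 to 12.5 and 6.66 to 8.24 CPM, Ccdc142 at 1.9 to 2.92 and 0.401 to 1.21 CPM and the predicted gene Gm50253 at 4.25 to 6.78 and 1.52 to 2.93 CPM. The groups did not overlap in any of the 10 genes, which follows largely from choosing them by the smallest p in the same comparison. Each was called in between 3 and 8 of the 10 fits that left out 1 library.

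In replicate 5, a set of genes differed more than 10-fold from the median of the other treated mice. The values that follow describe 1 mouse and were not tested. Depp1, a target of FoxO factors in fasting, was at 217 CPM, against 6.57, 4.36, 6.21 and 2.58 CPM in replicates 1 to 4 and 2.68 to 31.6 CPM with vehicle. The fibrinogen gene Fgg was at 199 CPM against 4.35 to 7.58 CPM and Eif4ebp3, which encodes a repressor of translation, at 97.9 CPM against 3.14 to 4.46 CPM. Among protein-coding genes averaging 100 or more counts, these 3 lay farthest above the nearest of the other treated mice. The 3 farthest below were Slc7a13, an amino acid transporter of the S3 segment, at 15.6 CPM against 143 to 207 CPM, Cyp2j13 at 20.7 CPM against 152 to 232 CPM and Dleu7 at 0.722 CPM against 8.73 to 16.6 CPM.

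Further genes of this mouse were chosen after their values were seen. The fasting genes Pdk4 (a brake on glucose oxidation) and Igfbp1 were at 304 and 127 CPM, 14.1 and 38.4 times the median of the other 4. Heme oxygenase (Hmox1) was at 326 CPM against 16.8 to 39.6 CPM, and the p53 targets Cdkn1a (p21) and Trp53inp1 were at 55.5 and 341 CPM, each 5.28 times the median of the other 4. Kap, the androgen-regulated kidney protein of the proximal tubule, was at 389 CPM against 1632 to 6374 CPM. Collagen genes of fibroblasts were low as well, with Col1a1 at 5.53 CPM against 22.7 to 50.7 CPM and Col3a1 at 8.58 CPM against 28.2 to 55.9 CPM.

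**Figure D4:**
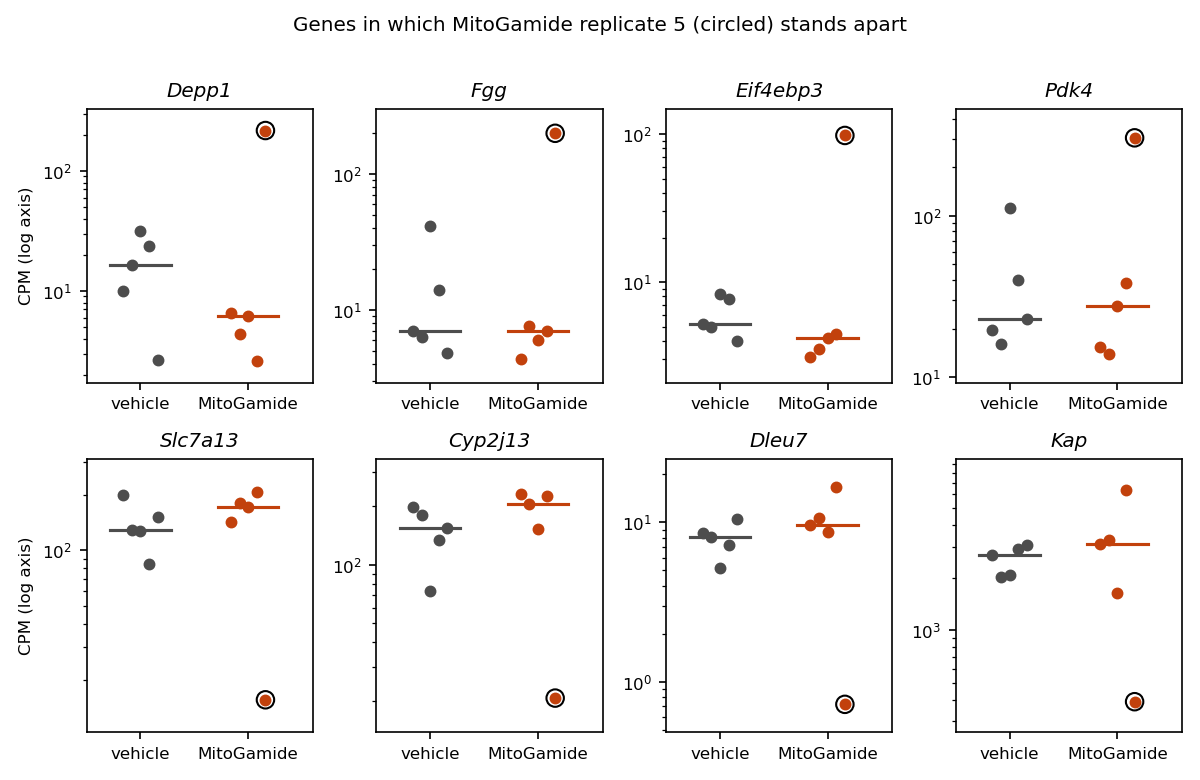
CPM on a log axis of 4 genes high (top) and 4 genes low (bottom) in MitoGamide replicate 5, which is circled, with vehicle in grey, MitoGamide in orange and a bar at each group's median (n = 5). Pdk4 and Kap were chosen after their values were seen, and the vehicle mouse next highest for Fgg and Pdk4 is replicate 3, at 41.3 and 111 CPM.

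Vehicle replicate 3 shared part of this pattern. It was at 41.3 CPM for Fgg, 75.4 CPM for Fga and 111 CPM for Pdk4, 5.20 to 6.23 times the median of the other 4 vehicle mice. Of the 115 genes in which it lay more than 2-fold above those mice, 45 (39.1%) were among the 600 genes high in MitoGamide replicate 5, of which they were 7.50%, while 11 (9.57%) were among the 647 genes low in that library. Of the 60 genes more than 2-fold below the other vehicle mice, 21 (35%) were among those 647, while 3 (5.0%) were among the 600. This overlap was not tested.

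When replicate 5 was left out, 586 genes tested in both fits were called that were not called before. Those described here, with Slc6a19 added as a called list member, had the smallest p in that fit, so that their likeness among the 4 treated mice follows from the choice. Irs2, which carries insulin signalling, was at 50.8, 53, 66.9, 51.8 and 51.3 CPM with vehicle and 38.6, 37.6, 30.4, 30.4 and 232 CPM with MitoGamide. The log2 fold change was 0.43 with all mice and -0.67 without replicate 5 (adjusted p = 0.676 and 0.0149, edgeR), a reversal of direction with 1 library. Slc6a19, the neutral amino acid transporter of the proximal tubule, was at 349 to 535 CPM with vehicle, 231 to 309 CPM in MitoGamide replicates 1 to 4 and 717 CPM in replicate 5 (log2 fold change without it -0.75, adjusted p = 0.0167, edgeR). Abcd4, Lmbr1l, Cnppd1 and Pde4c were lower in the same 4 mice, at -0.58, -0.68, -0.46 and -0.48 on the log2 scale. Them4 and Hpgd, which inactivates prostaglandins, were higher by 0.50 and 0.81 there and at 7.78 and 4.01 CPM in replicate 5, within or below the vehicle values. Timp2, a metalloproteinase inhibitor, was higher by 0.43 in the 4 mice and higher still in replicate 5, at 57.4 CPM.

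Glyoxalase 1 (Glo1), which removes methylglyoxal, was at 56.0 ± 3.11 CPM with vehicle and 56.5 ± 3.78 CPM with MitoGamide (SD, n = 5). None of 23 tested genes of dicarbonyl and glycation defence was called by edgeR, with or without replicate 5 (with all mice, 5 had an unadjusted p under 0.05, against 3564 of all 17051, and 1 was called by DESeq2, against 6.27% of all). Fn3k, which removes sugar from glycated lysine, was at 10.7 to 14.1 and 8.92 to 10.6 CPM, without overlap (log2 fold change -0.36, adjusted p = 0.0782, edgeR). Genes of the mitochondrial genome had a median log2 fold change of 0.35, with 14 of 15 above 0, 5 higher without overlap between groups (against 4.60% of all tested genes) and none called by edgeR (8 had an unadjusted p under 0.05, against 3564 of all 17051, and 4 were called by DESeq2, against 6.27% of all). Without replicate 5, the median was 0.25 and 2 were called, both higher (against 2.84% of all), mt-Atp6 and mt-Nd3. mt-Atp6, a subunit of ATP synthase, was at 3193 to 4325 CPM with vehicle, 5061 to 6101 CPM in MitoGamide replicates 1 to 4 and 9025 CPM in replicate 5 (adjusted p = 0.0584, edgeR, or 0.0274 without that library).

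In WT mice, the same treatment gave 0 called genes of 17395 tested with edgeR, 1841 genes with an unadjusted p under 0.05 and 74 called by DESeq2. The log2 fold changes in WT mice were 0.15 for Tpm4, 0.24 for Cald1, 0.05 for Cdh5, 0.22 for Mcam, 0.07 for Thbs1 and 0.08 for Hsp90aa1. The list medians in WT mice were 0.04 for actin genes, 0.07 for endothelial markers, 0.01 for chaperones and 0.03 for cell cycle genes. There, 19 of 125 actin and 31 of 167 cell cycle genes had an unadjusted p under 0.05 (against 1841 of all 17395). For endothelial markers and chaperones it was 0 of 16 and 8 of 111. In the list of cohesin, the anaphase-promoting complex and mitotic exit the median was 0.08 in WT and 0.11 in Akita mice, and 12 of 30 genes had an unadjusted p under 0.05 in WT mice (against 1841 of all 17395). An effect of MitoGamide that differed between genotypes was not called for any of 17256 genes, by edgeR (1435 with an unadjusted p under 0.05) or by DESeq2. The adjusted p of that difference was 0.582 for Tpm4, 0.585 for Cdh5 and 0.555 for Thbs1 (edgeR interaction term), so that these effects were not shown to differ between Akita and WT mice. Genes of the mitochondrial genome had a median of 0.46 in WT mice, and 12 of the 15 had an unadjusted p under 0.05 there.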

How the data were processed

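Total RNA from renal cortex was depleted of ribosomal RNA and sequenced. The authors deposited 1 table of estimated counts per gene, not normalized, for 40 libraries and 55401 genes, and the submitters' processing notes name kallisto 0.46.1 and R 4.0.2. Per the study's methods, reads were mapped to GENCODE mouse transcripts of a later release than GENCODE M21 (GRCm38), from which symbols and coordinates were taken here and which held 99.5% of the gene IDs. Estimated counts were rounded to whole numbers. Genes averaging 10 or more counts in the libraries compared were tested with edgeR 4.0.16 (TMM scaling, quasi-likelihood test, Benjamini-Hochberg adjustment at 0.05) in R 4.3.3, and the code was tested on simulated data. The difference between genotypes was an interaction term over 20 libraries. The members and gene lists were chosen with earlier results of these data known. Genes were named as called or leading members of a list, or as products the study measured. Named too were the 5 raised and 5 lowered protein-coding genes with the smallest p with all mice. The same numbers were taken among those called only without MitoGamide replicate 5, and the 3 farthest above and below in that replicate. Others were chosen outside this rule, and not all of them are marked as such. Some genes that this rule names are not reported here. Alternatives were DESeq2 1.42.0, RLE scaling, 2 other filters, a replicate block, a fit over 40 libraries and leaving out each library. Promoter windows came from the RefSeq table of GRCm38.p6. Figures were drawn with matplotlib 3.10.9.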

Additional observations from a re-analysis of the deposited data

Results flagged for a closer look

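Within each group of 5 mice, 31 of 180 sets of values for the genes examined had 1 mouse far from the other 4 by Dixon's ratio, of which 23 were in MitoGamide replicate 5 and 4 in vehicle replicate 3. Chance gives such a value in about 5% of sets, and many of these genes were chosen because of replicate 5, so the number is a description.

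In MitoGamide replicate 5 the far values above the other treated mice were 217 CPM for Depp1, 199 CPM for Fgg, 398 CPM for Fga, 97.9 CPM for Eif4ebp3, 127 CPM for Igfbp1, 326 CPM for Hmox1, 304 CPM for Pdk4, 55.5 CPM for Cdkn1a, 341 CPM for Trp53inp1 and 1357 CPM for Calb1, the calcium-binding protein of the distal tubule. Also far above were Dstn at 243 CPM, Wapl at 110.0 CPM, Irs2 at 232 CPM, Timp2 at 57.4 CPM, Abcd4 at 34.6 CPM, Lmbr1l at 9.95 CPM, Cnppd1 at 38.8 CPM, Slc6a19 at 717 CPM and mt-Atp6 at 9025 CPM. Far below were Hsp90b1 at 229 CPM, Dnaja1 at 81.7 CPM, Calr at 222 CPM and Them4 at 7.78 CPM.

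In vehicle replicate 3, Irs2 was at 66.9 CPM, Fgg at 41.3 CPM, Fga at 75.4 CPM and Pdk4 at 111 CPM, each above the other vehicle mice. Single vehicle mice were also far from the others for Rap1a (replicate 5, 27.1 CPM), Rap1b (replicate 1, 63.6 CPM), Cdkn1a (replicate 4, 16.1 CPM) and Mki67 (replicate 2, 19.1 CPM). Rap1a and Rap1b remained without overlap between groups with these mice included.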

How the results depend on the processing

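In Akita mice 214 genes were called by edgeR. The number was 1069 with DESeq2, 41 with all 40 libraries in one fit, 0 with a replicate block and 0 to 802 when 1 library was left out. With RLE scaling it was 214, without a filter 173 and with at least 10 counts in every library 199. In WT mice it was 74 with DESeq2 and 0 to 4 with 1 library left out, against 0. Irs2 (log2 fold change 0.43) was at -0.18 with the replicate block and -0.67 without MitoGamide replicate 5 (up to 0.63 without another library), and the cause of the other differences was not tested. The deviations of same-numbered mice from their group means had correlations of -0.122 to 0.025, and 1 of 5 was highest with its own number. The labels do not say what the replicate number stands for, and its part in the results was not tested. Genes averaging under 10 counts were not tested in the main analysis.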

Other observations

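Immediate early genes, which respond to stimuli within minutes, had a median log2 fold change of 0.32 in Akita mice. Of 20 tested members 17 were above 0, against 49.6% of all tested genes. None was called by edgeR or DESeq2 (against 1.26% and 6.27% of all), and 1 had an unadjusted p under 0.05 (against 3564 of all 17051). Their summed level was 236 to 309.7 CPM of the library total with vehicle and 225 to 478 CPM with MitoGamide, and the highest value was that of replicate 5. Without this mouse the median was -0.01. Of the mitochondrial genome, mt-Nd3, a subunit of complex I, had a log2 fold change of 0.53 in Akita mice (adjusted p = 0.0545, edgeR) and 0.67 in WT mice.

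The B and plasma cell list had 4 of 9 markers with enough counts, none called, and its summed level overlapped between groups at 49.7 to 161 and 68.8 to 196 CPM. The liver list summed to 689 to 900.4 CPM with vehicle and 566 to 1166 CPM with MitoGamide, with 638 CPM in replicate 5, the mouse with the highest Fgg. The 9 adrenal markers summed to 3.07 to 4.74 and 2.75 to 3.74 CPM. Grem1, an antagonist of bone morphogenetic proteins, had a log2 fold change of 1.68 (adjusted p = 0.0800, edgeR).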
